A study of Homo sapiens with 4 samples.

Results

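Transcripts of 10 genes of the NF-kB pathway were followed in 4 RNA-seq libraries from human lines of multiple myeloma, the malignancy of plasma cells. The genes were chosen by name from the 60612 genes in each deposited table, as the subunits of the transcription factor and the regulators that are often altered in myeloma. The subunits are NFKB1, RELA and REL of the canonical arm and NFKB2 and RELB of the alternative arm. The regulators are NFKBIA, MAP3K14, TRAF3, BIRC3 and CYLD. All 10 were found in both tables, and 8 of them reached 1 FPKM (fragments scaled to transcript length and library size) in at least 1 library, while REL and BIRC3 stayed under 1 FPKM in every library.

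NF-kB is a family of dimers that inhibitor proteins hold in the cytoplasm. In the canonical arm a kinase complex marks the inhibitor IkB-alpha for destruction, which frees dimers of RELA or REL with p50, the processed product of NFKB1. In the alternative arm the kinase NIK accumulates when its turnover complex fails, and the NFKB2 product is then processed to p52, which pairs with RELB. Plasma cells use both arms for survival, and many myelomas carry lesions that leave the pathway on without a ligand.

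The groups were H929 cells labelled after sorting, H929 cells labelled before sorting, KMS28BM cells labelled after sorting and KMS28BM cells labelled before sorting, with 1 library each and no other treatment given in the labels. Both are established cell lines, and a microfluidic chip did the sorting. Wording in the title of the series seems to call the A libraries, here labelled after sorting, the unsorted ones, so every direction between sorting labels would turn round if the title held. With 1 library per group, differences inside a line carry no replicate check, and in bulk RNA fewer cells of a type cannot be told apart from less RNA per cell. Estimated depth, from the smallest steps in the values, lay between 21.2 and 24.8 M (mega) fragments per library. Intervals are not given, since the deposited values are not counts. All 9 plasma cell markers examined, SDC1, CD38 and TNFRSF17 among them, reached 1 FPKM in every library, and 0 of 4 B cell, 0 of 5 stromal and 0 of 4 neutrophil markers did in any. Of 5 monocyte, 5 T and NK cell and 4 endothelial markers, 1 each did, CD68, GZMB and ESAM. CD68 did in all 4 libraries, at 11.5 and 10.8 FPKM in H929 and at 1.77 and 1.87 FPKM in KMS28BM. GZMB did in both H929 libraries, and ESAM in these and in KMS28BM labelled before sorting. CSF1R stood at up to 0.722 FPKM, CD14 at up to 0.3 FPKM and CD3E at up to 0.203 FPKM. LYZ, CD3D and CDH5 stayed at 0.0234 FPKM or less. The summed plasma cell markers came to 1.11e+03 FPKM after and 2.09e+03 FPKM before sorting in H929, and to 3.03e+03 FPKM after and 2.01e+03 FPKM before in KMS28BM. JCHAIN, the joining chain of secreted antibodies, alone gave 589 FPKM after and 1140 FPKM before in H929, and 2430 FPKM after and 1420 FPKM before in KMS28BM. SDC1 stood at 76 and 73 FPKM in H929 and at 148 and 187 FPKM in KMS28BM. In H929 every plasma cell marker except SDC1 was lower after than before sorting. IRF4 was at 55.1 against 260 FPKM there, XBP1 at 191 against 305 FPKM and CD38 at 6.89 against 16.1 FPKM. In KMS28BM SDC1 and MZB1 were lower after sorting and the other plasma cell markers higher. The markers' part in the results below was not tested.

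Several members are themselves textbook NF-kB target genes. The sequence before a start site is shown for NFKB1, NFKB2, NFKBIA and BIRC3, each at a start whose window holds a match. Each is the 250 bases before a RefSeq start (GRCh38.p14), 5′ to 3′ on the gene's strand. Capitals mark matches on either strand to a form of the kappaB site, GGG followed by any 2 bases and then TTTCC.
NFKB1, chr4:102501109-102501358, + strand: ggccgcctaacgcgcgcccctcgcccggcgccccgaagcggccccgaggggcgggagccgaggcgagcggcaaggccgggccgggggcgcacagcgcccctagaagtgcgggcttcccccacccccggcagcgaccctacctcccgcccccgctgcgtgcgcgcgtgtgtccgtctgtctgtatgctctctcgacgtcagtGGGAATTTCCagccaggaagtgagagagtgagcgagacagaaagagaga
NFKB2, chr10:102395455-102395704, + strand: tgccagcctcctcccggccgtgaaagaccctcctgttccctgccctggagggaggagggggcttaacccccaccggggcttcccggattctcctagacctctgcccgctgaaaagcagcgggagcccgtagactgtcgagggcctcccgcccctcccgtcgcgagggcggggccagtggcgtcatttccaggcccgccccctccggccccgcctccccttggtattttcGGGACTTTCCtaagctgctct
NFKBIA, chr14:35404750-35404999, - strand: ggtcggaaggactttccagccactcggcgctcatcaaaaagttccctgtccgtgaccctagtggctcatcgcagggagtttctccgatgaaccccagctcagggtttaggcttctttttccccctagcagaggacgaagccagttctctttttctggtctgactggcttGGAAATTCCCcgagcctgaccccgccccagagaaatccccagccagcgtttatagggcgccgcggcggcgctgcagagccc
BIRC3, chr11:102317234-102317483, + strand: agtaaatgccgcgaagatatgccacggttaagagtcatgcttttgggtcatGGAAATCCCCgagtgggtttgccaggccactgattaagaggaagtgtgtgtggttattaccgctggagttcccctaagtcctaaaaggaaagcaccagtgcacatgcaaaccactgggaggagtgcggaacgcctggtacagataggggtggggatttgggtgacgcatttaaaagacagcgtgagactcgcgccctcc
The match lies 49 bases before the start in NFKB1, 21 bases before that NFKB2 start, 81 bases before in NFKBIA and 199 bases before in BIRC3, counted to its first base. The 9 members with an entry, RELB being the other, have 15 windows, and 8 windows of 7 members hold a match (REL, TRAF3, CYLD and a further NFKB2 start also do). The windows of RELA and MAP3K14 hold none, nor do other starts of NFKB1, NFKB2 and CYLD. Of all 35116 windows of this length, 1.73% hold a match. The letters were picked after these windows had been read, so the share is a description. Both strands were searched and overlapping matches were allowed.

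Among the canonical subunits, RELA was the steady one and NFKB1 differed between the lines. RELA, the main transactivating subunit, stood at 25.9 FPKM in H929 labelled after sorting and 26.1 FPKM in H929 labelled before, and at 24.2 and 26 FPKM in KMS28BM. The 4 values span a narrow range and the lines overlap. NFKB1, which encodes p105 and p50, stood at 10.4 FPKM after and 9.14 FPKM before sorting in H929, and at 5.88 FPKM after and 3.32 FPKM before in KMS28BM. Both H929 libraries were above both KMS28BM libraries, by 1.76-fold at the after label and 2.75-fold at the before label. Of 12294 genes, 65.8% likewise did not overlap between the lines, in either direction. REL, the lymphoid subunit c-Rel, was hardly listed, at 0.013 FPKM after and 0.20 FPKM before in H929, and at 0.066 FPKM after and 0.025 FPKM before in KMS28BM. These REL values correspond to roughly 3, 56, 17 and 6 fragments on its longest transcript, and 43.1% of its 50-base words also occur in other genes, chiefly the overlapping AC010733.2.

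Transcripts of the alternative arm were the more abundant per length. NFKB2, the precursor of p52, stood at 37.4 FPKM after and 34 FPKM before sorting in H929, and at 53.4 FPKM after and 62.7 FPKM before in KMS28BM. The H929 values lie below both KMS28BM values, where 65.8% of 12294 genes did not overlap between the lines. RELB, its partner, stood at 34.2 FPKM after and 42.5 FPKM before in H929, and at 23.1 FPKM after and 42.3 FPKM before in KMS28BM. In each line the library labelled after sorting was the lower one, and the before libraries of the lines were nearly level.

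Ratios between members inside a library do not change with a common scaling factor, but can still move with the GC content of the transcripts. GC content was 62.4% for NFKB2, 65.4% for RELB and 50.1% for NFKB1. For the ratio after over before sorting in KMS28BM, a trend in GC content and length came to -0.24 for NFKB2 and 0.19 for NFKB1. Its part in the values below was not tested. The summed FPKM of NFKB2 and RELB was 1.97 times that of NFKB1, RELA and REL in H929 labelled after sorting and 2.16 times in H929 labelled before, and 2.54 and 3.58 times in KMS28BM. The alternative subunits thus made up 66.3% and 68.4% of the summed subunit FPKM in H929, against 71.7% and 78.2% in KMS28BM. NFKB2 over NFKB1 did not overlap between the lines, at 3.60 after and 3.73 before in H929, against 9.08 after and 18.9 before in KMS28BM. RELB over RELA did not separate them, at 1.32 after and 1.63 before in H929, against 0.954 after and 1.63 before in KMS28BM. No share over other pairs of genes was computed for these ratios. The values are levels of RNA, and processing of p105 and p100 is not measured by them.

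**Figure D1:**
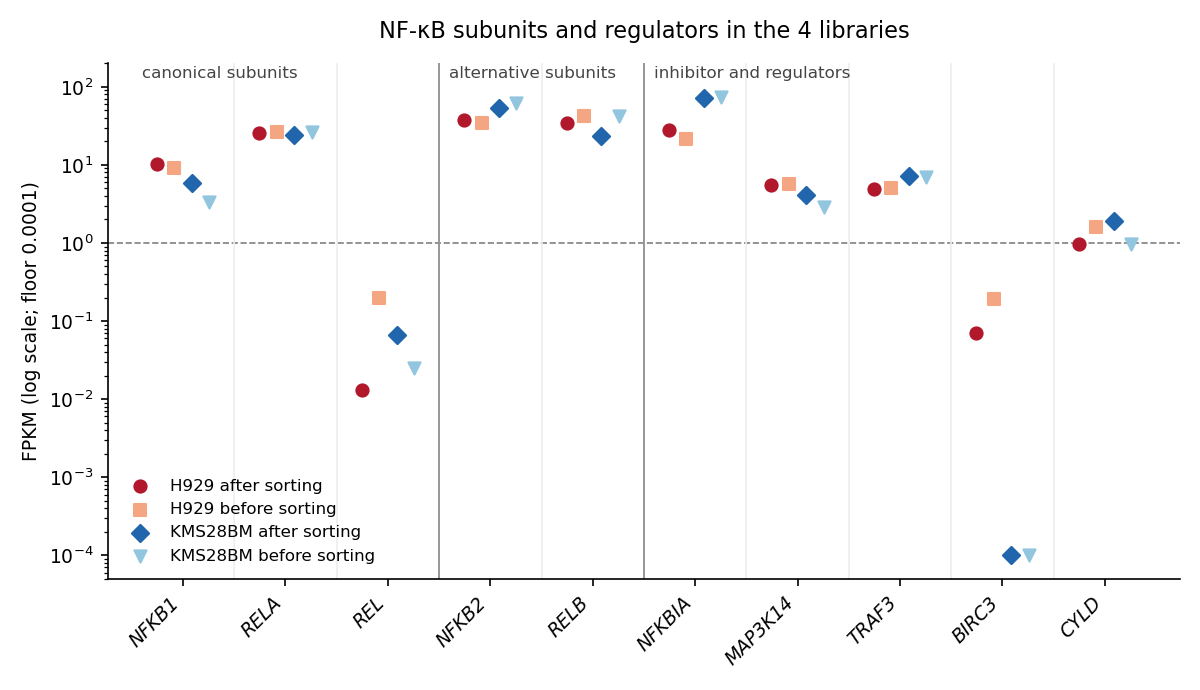
FPKM (log axis) of each gene in the 4 libraries, 1 point per library, grouped by arm; the dashed line marks 1 FPKM and 0.0001 is the deposited floor. NFKBIA stands at 71.8 and 73.7 FPKM in KMS28BM, above 27.9 and 21.4 FPKM in H929, while REL and BIRC3 lie under the line in all 4 libraries.

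NFKBIA, which encodes IkB-alpha and is switched on by the dimers it restrains, was the member with the largest difference between lines among the 8 measured. It stood at 27.9 FPKM after and 21.4 FPKM before sorting in H929, and at 71.8 FPKM after and 73.7 FPKM before in KMS28BM. The lines did not overlap, where 65.8% of 12294 genes did not. H929 was at 0.388 times the KMS28BM level at the after label and 0.29 times at the before label. NFKBIA over RELA within a library was 1.07 after and 0.821 before in H929, against 2.96 after and 2.84 before in KMS28BM. In KMS28BM NFKBIA was the highest of the 10 members, and in H929 it came after NFKB2 and RELB, and in the library labelled before sorting after RELA too.

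MAP3K14 encodes NIK, the kinase that starts the alternative arm, and TRAF3 encodes the adaptor that brings NIK to its destruction. MAP3K14 stood at 5.57 FPKM after and 5.74 FPKM before sorting in H929, and at 4.09 FPKM after and 2.85 FPKM before in KMS28BM. TRAF3 stood at 4.97 FPKM after and 5.06 FPKM before in H929, and at 7.16 FPKM after and 7.06 FPKM before in KMS28BM. Neither gene overlapped between the lines, where 65.8% of 12294 genes did not. They differed in opposite directions, so that MAP3K14 over TRAF3 was 1.12 and 1.14 in the H929 libraries, against 0.571 and 0.403 in the KMS28BM libraries. The antisense gene MAP3K14-AS1 overlaps MAP3K14 and stood between 0.514 and 1.32 FPKM; the strand used in counting was not stated, so reads of the pair cannot be told apart. CYLD, a deubiquitinase that takes ubiquitin chains off signalling proteins of the pathway, was near the 1 FPKM line, at 0.97 FPKM after and 1.61 FPKM before in H929, and at 1.91 FPKM after and 0.96 FPKM before in KMS28BM. Its lines overlap, and the sorting labels stand in opposite order in them.

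BIRC3 encodes cIAP2, a ubiquitin ligase of the NIK turnover complex, and it was the lowest of the regulators. It was listed at 0.071 FPKM after and 0.19 FPKM before sorting in H929, about 8 and 24 fragments, and at the floor of 0.0001 FPKM in both KMS28BM libraries. BIRC2, its neighbour and the gene of cIAP1, was at 1.76 FPKM after and 3.46 FPKM before in H929, against 0.059 FPKM after and 0.0393 FPKM before in KMS28BM. The next gene along, TMEM123, was at 10.2 FPKM after and 35.7 FPKM before in H929, against 0.377 FPKM after and 0.22 FPKM before in KMS28BM. YAP1, on the other side of BIRC3, was at 0.698 and 1.37 FPKM in H929 and at the floor in KMS28BM. A run of 35 consecutive protein-coding genes on chromosome 11, CCDC82 to KBTBD3, had no member at 1 FPKM in either KMS28BM library. Of these, 21 were at the floor in both KMS28BM libraries, and some of the 21, such as PGR, TRPC6 and CASP5, in both H929 libraries too. Of all 60612 genes, protein-coding or not, 37966 after and 39183 before sorting were at the floor in KMS28BM, and 39041 and 36942 in H929. These counts take each library alone. The share of protein-coding genes at the floor in both libraries of a line, or at 1 FPKM, was not computed. JRKL, in the run, differed little at the after label, at 0.652 FPKM in KMS28BM and 0.547 FPKM in H929. In H929, 10 genes of the run reached 1 FPKM in at least 1 library, CASP4 at 4.59 and 8.15 FPKM and DCUN1D5 at 2.33 and 1.79 FPKM among them. Genes flanking the run were listed in both lines, such as AASDHPPT at 2.06 FPKM after and 4.48 FPKM before in H929, and 2.58 FPKM after and 1.13 FPKM before in KMS28BM. The run was picked after these values had been seen, and its cause was not tested.

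**Figure D2:**
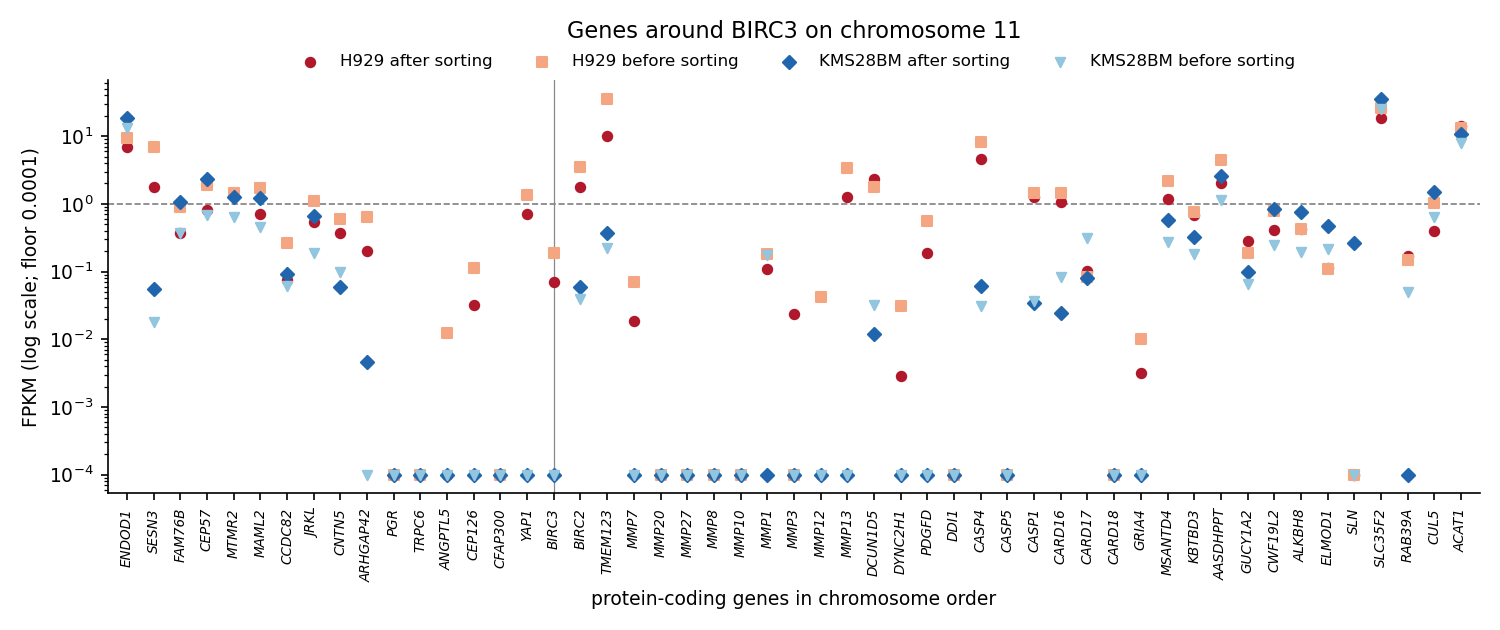
FPKM (log axis) of the protein-coding genes around BIRC3 in chromosome order, 1 point per library, with the dashed line at 1 FPKM and the floor at 0.0001. KMS28BM points lie under 1 FPKM for all 35 genes from CCDC82 to KBTBD3, where 10 genes of H929 reach it; points at the floor lie on top of each other.

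The first comparison set the 2 sorting labels of H929 against each other, after over before. Of the 8 measured members 0 were at least 2-fold apart on the scale of FPKM plus 1, where 6.76% of the 11083 genes measured were, 1.59% higher and 5.17% lower. Their median log2 ratio was -0.01, against -0.11 over all genes. NFKBIA had the highest ratio, 0.37, at percentile 84.2 of all genes measured, and CYLD the lowest, -0.40, at percentile 28.8. RELB was at -0.30 and NFKB1 at 0.17, and the ratios of RELA, NFKB2, MAP3K14 and TRAF3 lay between -0.04 and 0.13; with a trimmed-mean scaling RELA, MAP3K14 and TRAF3 turned to 0.24, 0.18 and 0.20 and RELB stood at -0.05. That scaling turned the split of all genes 2-fold apart to 376 higher and 328 lower, against 176 higher and 573 lower as deposited. Centring on the median of genes at 5 FPKM or more moved the split the other way, to 140 higher and 749 lower.

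In KMS28BM the same comparison gave 0 of 8 members 2-fold or more apart, where 5.25% of 10472 genes were, 4.13% higher and 1.12% lower. The median was -0.01, against 0.12 over all genes. RELB was the lowest at -0.84, percentile 1.5 of all genes measured, and with a trimmed-mean scaling it passed 2-fold at -1.07. NFKB1 was the highest at 0.67, percentile 85.9, followed by CYLD at 0.57 and MAP3K14 at 0.40. CYLD, near the 1 FPKM line, had an after over before ratio of 2.0 in plain FPKM. With 0.1 in place of 1 added to the FPKM, its log2 ratio came to 0.93. NFKB2, RELA, NFKBIA and TRAF3 lay between -0.23 and 0.02, and the trimmed-mean scaling turned TRAF3 to -0.19. It turned the split of all genes to 197 higher and 170 lower, against 433 higher and 117 lower as deposited. Centring on the median of genes at 5 FPKM or more gave 505 higher and 101 lower. The ratios of 5 of the 8 members, NFKB2, NFKBIA, MAP3K14, TRAF3 and CYLD, had opposite signs in the lines, as did 69.1% of 9261 genes. At 1.5-fold, RELB and NFKB1 passed in KMS28BM, where 22.7% of genes did, and 0 members passed in H929, where 26.2% did.

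**Figure D3:**
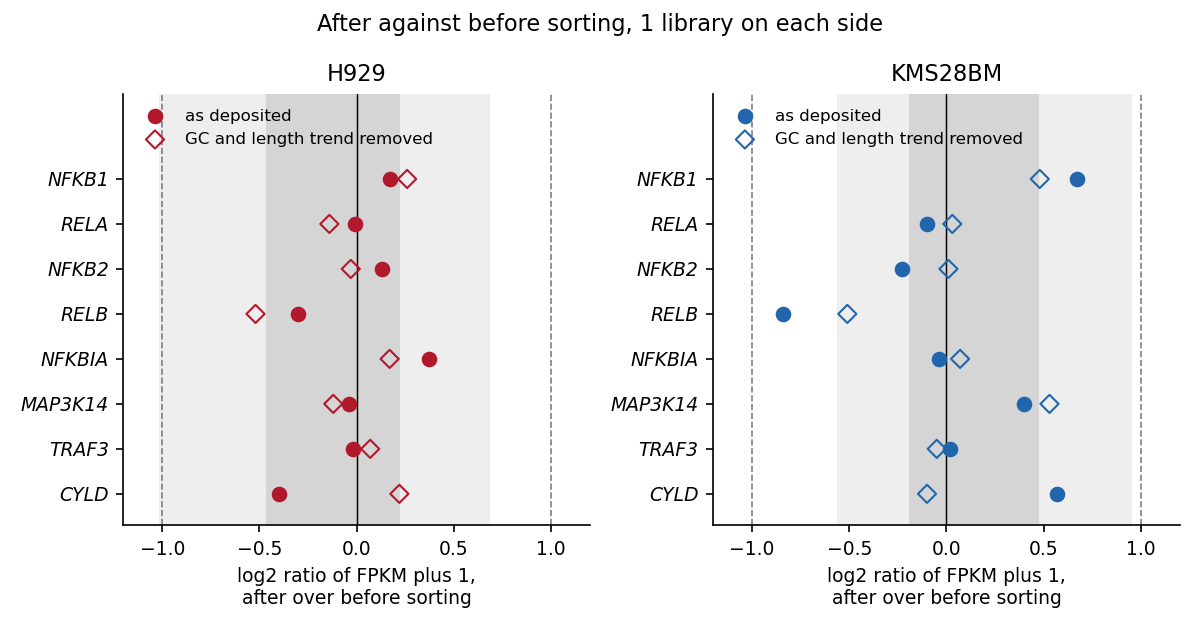
Log2 ratio of FPKM plus 1, after over before sorting, of the 8 measured members in each line; filled points are as deposited, open diamonds have the trend in GC content and length removed. Grey bands hold the middle 50% and 90% of all genes and dashed lines mark 2-fold; no member passes them, and RELB in KMS28BM at -0.84 comes nearest.

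The ratios within each line moved with the GC content of the transcripts, in opposite directions. Spearman's rho of the ratio with GC content came to 0.54 across 9262 protein-coding genes in H929 and to -0.73 across 8922 in KMS28BM; genes are not independent replicates and share the 2 libraries of their line. The decile with the lowest GC content had a median ratio of -0.61 in H929 and 0.66 in KMS28BM. CYLD, with a GC content of 39.7%, followed this course, and with a trend in GC content and length removed its ratios of -0.40 and 0.57 became 0.22 and -0.10. NFKBIA came to 0.17 and 0.07, and NFKB2 to -0.03 and 0.01. TRAF3 turned sign in both lines, to 0.07 in H929 and -0.05 in KMS28BM, and RELA stood at -0.14 in H929 and turned to 0.03 in KMS28BM. RELB, at 65.4% the member richest in GC, kept its sign, at -0.52 in H929 and -0.51 in KMS28BM. NFKB1, at 50.1% GC, had 0.26 and 0.48 with the trend removed. MAP3K14 had -0.12 in H929 and 0.53 in KMS28BM.

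**Figure D4:**
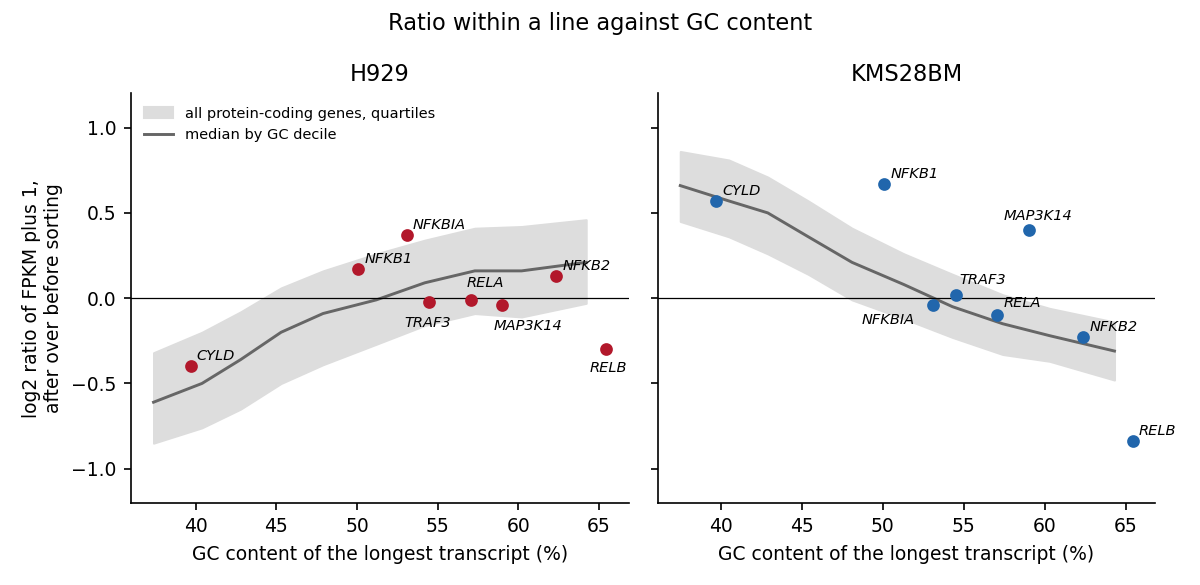
Log2 ratio of FPKM plus 1, after over before sorting, against GC content of the longest transcript; the line is the median over protein-coding genes by GC decile, the band their quartiles, and points are the 8 measured members. CYLD lies near the course of all genes in both lines, and RELB lies under it in both, at -0.30 in H929 and -0.84 in KMS28BM.

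Whether sorting shifted both lines the same way was tested with limma across 12294 genes, with line as a term, of which 0.114% passed an adjusted p of 0.05. The fit has 1 residual degree of freedom per gene besides the moderation. Its residual is the gap between the ratios of the lines, so a member that does not pass is not shown to be unchanged. Of the 8 members 0 passed, and 0 were under an unadjusted p of 0.05, where 1.5% of genes were. RELB came nearest, with a shared log2 change of -0.57 (SE 0.39, limma adjusted p = 1, unadjusted p = 0.151) and a ratio below 0 in both lines. NFKB1 had a shared log2 change of 0.42 (SE 0.40, limma adjusted p = 1, unadjusted p = 0.303) and a ratio above 0 in both lines. Among the members, 0 were marked significant by the authors in either line. Of all 60612 genes they marked 954 in H929 and 586 in KMS28BM. The members' deposited p-values, from a test the sources do not name, were 0.392 or more in H929 and 0.109 or more in KMS28BM. Their q-values were 0.998 or more.

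Between the lines no test was made, since the lines stand in separate tables whose common scaling is not known. Levels of 5 of the 8 measured members did not overlap between H929 and KMS28BM, where 65.8% of 12294 genes did not. NFKB1 and MAP3K14 were higher in both H929 libraries than in either KMS28BM library, and NFKB2, NFKBIA and TRAF3 were lower. Of the members only NFKBIA was 2-fold or more apart at both labels, with log2 ratios of -1.33 and -1.74, and 16.7% of all genes were. NFKB1 was at 0.72 and 1.23, NFKB2 at -0.50 and -0.86, MAP3K14 at 0.37 and 0.81, TRAF3 at -0.45 and -0.41, and RELA at 0.09 and 0.0045. The same comparison had a median of -0.05 and 0.25 over all genes.

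Pathway genes were also counted from lists chosen with earlier results of these data known. The lists overlap, with TNFAIP3, TRAF1 and BIRC2 among the genes on more than 1 list, and the general targets include the members NFKB1 and REL. The share of all genes 2-fold or more higher in H929 than in KMS28BM at both labels was 9.59%, and 7.14% were lower. Of 17 receptors 7 were measured, with 2 higher and 2 lower in H929. TNFRSF1B, a TNF receptor, stood at 49.0 and 47.2 FPKM in H929 and at 14.7 and 16.6 FPKM in KMS28BM, and TNFRSF8, which encodes CD30 and was picked after its values were seen, at 11.5 and 6.78 FPKM against 0.0112 and 0.0248 FPKM. CD40, a receptor that activates both arms, was at 0.0174 FPKM and the floor in H929, against 17.1 and 19.4 FPKM in KMS28BM. TNFRSF17, the myeloma antigen BCMA, was at 25.9 and 33.9 FPKM in H929 and at 41.6 and 35.3 FPKM in KMS28BM. Between sorting labels, 1 of 5 receptors measured in H929 was 2-fold or more higher, TNFRSF12A at 5.66 FPKM after against 1.80 FPKM before, a log2 ratio of 1.25 that came to 0.95, under 2-fold, with the GC and length trend removed. In KMS28BM it was 1 of 6, TLR7 at 6.49 FPKM after against 2.51 FPKM before, a log2 ratio of 1.09 that came to 0.49 with the trend removed; 1.59% of H929 genes and 4.13% of KMS28BM genes were 2-fold higher.

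Of 12 ligands 4 were measured, and 2 were lower in H929 at both labels, where 7.14% of all genes were. CD70, the ligand of CD27, stood at 1.83 and 1.62 FPKM in H929, against 36.4 and 45.8 FPKM in KMS28BM. LTA, lymphotoxin alpha, stood at 0.0757 and 0.255 FPKM against 4.94 and 4.86 FPKM. IL1B was at 0.938 and 0.0134 FPKM in H929 and TNFSF13, which encodes APRIL, at 0.108 and 0.313 FPKM, against 1.35 and 1.18 FPKM and 0.968 and 1.02 FPKM in KMS28BM.

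Of 26 adaptors and kinases 25 were measured, 4 of them higher in H929 at both labels (BIRC2, MYD88, IRAK2 and IRAK4) and 2 lower (TRAF1 and RBCK1). Over all genes 9.59% were higher and 7.14% lower. IRAK1, a kinase of Toll-like receptor signalling, was the most abundant, at 60.7 and 48.9 FPKM in H929 and 45.1 and 54.0 FPKM in KMS28BM. RBCK1 and SHARPIN, subunits of the linear ubiquitin ligase, stood at 6.67 and 6.32 FPKM and at 9.55 and 8.44 FPKM in H929, against 18.8 and 18.9 FPKM and 18.4 and 24.1 FPKM in KMS28BM. TRADD, the TNF receptor adaptor, was at 12.6 and 16.4 FPKM against 6.21 and 9.84 FPKM. Between sorting labels 1 of 24 in H929 was 2-fold or more lower, TAB2 at 1.41 FPKM after against 4.42 FPKM before, where 5.17% of genes were. In KMS28BM 0 of 20 were 2-fold apart, where 5.25% of genes were. With the GC and length trend removed TAB2 was at -0.65. The 3 genes of the IKK complex were within 2-fold at every comparison on the scale of FPKM plus 1. On that scale IKBKB came to a log2 ratio of 0.70 between the lines at the before label, a gap over 2-fold in plain FPKM. CHUK and IKBKB, its kinases, stood at 1.67 and 1.73 FPKM and at 2.04 and 2.75 FPKM in H929, against 2.16 and 1.49 FPKM and 1.42 and 1.31 FPKM in KMS28BM. IKBKG, its regulatory subunit, stood at 5.90 and 5.70 FPKM in H929 and 4.48 and 5.58 FPKM in KMS28BM. IKBKG has a near-identical pseudogene, so its reads may be split.

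Of the 7 other inhibitors and atypical IkB genes, 1 was lower in H929 at both labels, where 7.14% of all genes were. It was BCL3, at 7.93 and 6.12 FPKM against 21.1 and 25.9 FPKM. NFKBIB and NFKBIE, which encode IkB-beta and IkB-epsilon, stood at 28.7 and 20.8 FPKM and at 17.8 and 13.7 FPKM in H929, against 18.6 and 20.7 FPKM and 26.9 and 33.1 FPKM in KMS28BM. NKIRAS1 was 2-fold or more lower after sorting in H929, at 1.32 FPKM against 4.05 FPKM, a log2 ratio of -1.12 that came to -0.74, under 2-fold, with the trend removed. NKIRAS2 stood at 10.6 and 10.3 FPKM in H929 and 7.35 and 12.3 FPKM in KMS28BM. Among 8 feedback genes measured, 1 was 2-fold or more lower after sorting in H929 (TAX1BP1) and 2 were higher in KMS28BM (TAX1BP1 and SPATA2). Over all genes, 5.17% were 2-fold or more lower in H929 and 4.13% higher in KMS28BM. With the GC and length trend removed TAX1BP1 stood at -1.22 in H929 and at 0.92, under 2-fold, in KMS28BM, and SPATA2 stood at 2.13 in KMS28BM. The median ratio of the feedback genes in KMS28BM was 0.57 as deposited and 0.05 with the trend removed. TNFAIP3, which encodes the deubiquitinase A20, was lower in H929 at both labels, at 7.58 and 6.24 FPKM against 31.1 and 19.4 FPKM. TNIP1, an A20 partner, was at 35.4 and 50.6 FPKM against 56.7 and 66.9 FPKM, and TNIP2 at 14.7 and 12.2 FPKM against 14.7 and 17.5 FPKM. TAX1BP1, another A20 partner, stood at 1.22 FPKM after against 4.78 FPKM before sorting in H929, and at 4.14 FPKM after against 1.24 FPKM before in KMS28BM. SPATA2, which ties CYLD to the receptor complexes, stood at 4.59 and 3.97 FPKM in H929, and at 9.17 FPKM after against 1.13 FPKM before in KMS28BM.

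A published signature of NF-kB activity in myeloma has 11 genes, 4 of them members here, and 10 were measured. At both labels 5 were 2-fold or more lower in H929 (CD74, WNT10A, PLEK, TNFAIP3 and NFKBIA) and 1 was higher (IL2RG). Over all genes 7.14% were lower and 9.59% higher. Of the signature genes just named, CD74 and NFKBIA are named by level and the others by their values. The median log2 ratio of H929 over KMS28BM was -1.18 after and -1.34 before sorting, against -0.05 and 0.25 over all genes. CD74, the class II invariant chain, stood at 7.17 and 6.12 FPKM in H929, against 578 and 721 FPKM in KMS28BM. WNT10A, a Wnt ligand, stood at 0.399 and 0.218 FPKM against 26.6 and 39.8 FPKM. IL2RG, the common cytokine receptor chain, went the other way, at 6.94 and 6.78 FPKM against 0.758 and 0.918 FPKM. Between sorting labels 0 of 7 signature genes measured in H929 and 0 of 9 in KMS28BM were 2-fold apart, where 6.76% and 5.25% of genes were.

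**Figure D5:**
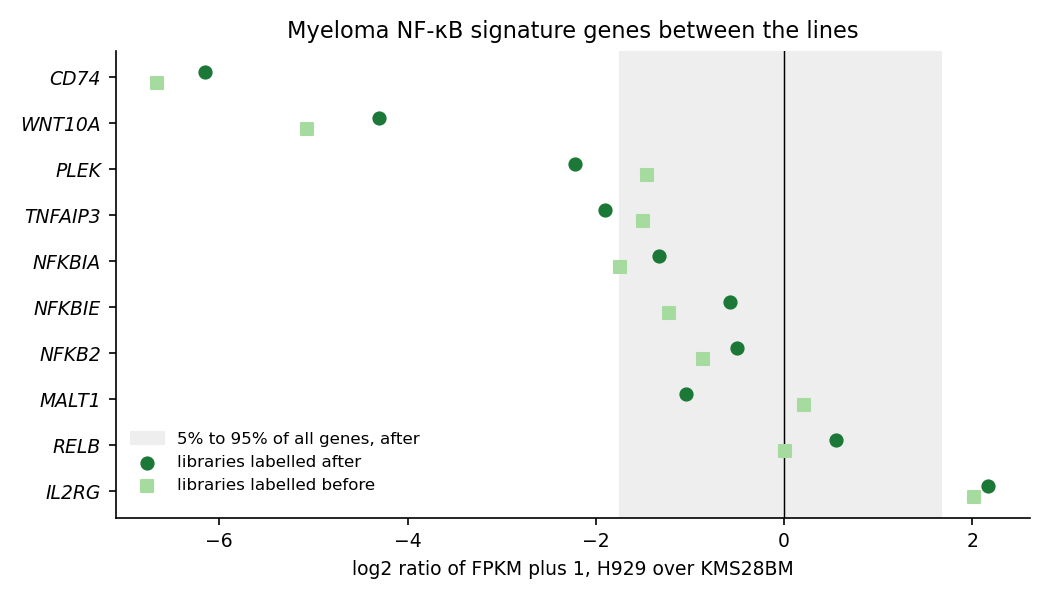
Log2 ratio of FPKM plus 1, H929 over KMS28BM, of the 10 measured signature genes at each sorting label; the grey band holds the middle 90% of all genes in the libraries labelled after. CD74 lies at -6.15 and -6.66 and WNT10A at -4.30 and -5.07, IL2RG above 2 at both labels, and RELB at 0.55 and 0.01.

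Of 33 general NF-kB targets 21 were measured, with 9 lower and 2 higher in H929 at both labels, where 7.14% and 9.59% of all genes were. The 2 higher were CCL5 and BIRC2, and BIRC2 lies in the run around BIRC3 that stayed under 1 FPKM in KMS28BM. Between sorting labels 0 of 16 in H929 and 0 of 20 in KMS28BM were 2-fold apart, where 6.76% and 5.25% of genes were. ICAM1, an adhesion molecule, showed the widest gap among the targets measured, at 0.664 and 0.194 FPKM in H929 and 312 and 326 FPKM in KMS28BM. JUNB was at 125 and 108 FPKM against 284 and 368 FPKM. The chemokine gene CCL5 was higher in H929, at 147 and 134 FPKM against 52.3 and 52.2 FPKM, and CCL3, whose near-identical copies may share its reads, was at 283 and 310 FPKM against 350 and 481 FPKM.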

How the data were processed

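RNA was measured in 4 poly(A) libraries, read in pairs on an Illumina NovaSeq per the labels' protocols. The deposited values are FPKM per the file headers, in 1 table for each line; the submitters' processing notes name Bowtie 0.12.2, HISAT2 2.0 and StringTie 1.3.0, and mm8, a mouse build that does not match the human gene IDs, so the human build is not stated. The deposited fold ratio, its log2 value and the p-value and q-value are the authors' own, from a test the sources do not name. The members and lists were chosen with earlier results of these data known.

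A gene counted as measured in a line when 1 of its libraries reached 1 FPKM, and across lines when any library did. Ratios are on the log2 scale of FPKM plus 1, so changes of low genes come out too small; members of a list were named where they had the 4 highest mean levels or were 2-fold apart within a line, and other genes after their values were seen. The shared change was fitted with limma 3.58.1 in R 4.3.3 (terms line and sorting, moderation with a trend, Benjamini-Hochberg adjustment). The fit was tried on simulated data that held no trend in GC content, unlike the libraries here. GC content, length (longest transcript) and shared 50-base words came from GENCODE release 29, where 58394 IDs matched; 99.4% of the 12294 genes at 1 FPKM or more had both values. The removed trend was a cubic in GC content and log2 length, fitted per line on protein-coding genes. Tables and plots were made with pandas 2.3.3, numpy 2.4.6 and matplotlib 3.10.9 in Python 3.11.15.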

Additional observations from a re-analysis of the deposited data

Results flagged for a closer look

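For 5 of the 8 measured members the ratio after over before sorting had opposite signs in the lines, where 69.1% of the 9261 genes measured in both lines did. The difference of the log2 ratios, H929 minus KMS28BM, was -0.97 for CYLD, -0.44 for MAP3K14, 0.40 for NFKBIA, 0.36 for NFKB2 and -0.04 for TRAF3. With 1 library per group these differences were not tested. With the trend in GC content and length removed, CYLD stood at 0.22 in H929 and -0.10 in KMS28BM, and NFKBIA at 0.17 and 0.07.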

How the results depend on the processing

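The settings tried were thresholds of 1.5-fold and 4-fold, filters of none and 5 FPKM, and pseudocounts of 0.1 and 5. Others were centring on genes at 5 FPKM or more and a trimmed mean. The trimmed mean dropped 30% of the ratios and 5% of the levels at each end. Removal of the GC and length trend and a fit without a trend in the moderation were also tried. The settings of the list medians were chosen after seeing the data. With the trimmed mean all genes had a median ratio of 0.10 in H929 (-0.106 as deposited) and -0.063 in KMS28BM (0.122 as deposited). With centring the median was -0.181 in H929 and 0.16 in KMS28BM. The count of members 2-fold apart after against before sorting was 0 in H929 under all 9 alternatives run, and in KMS28BM it became 1 (RELB) with the trimmed mean and 2 at 1.5-fold. Between lines it was 1 as reported, 2 at 1.5-fold (with NFKB1) and 0 at 4-fold. Genes called in the shared fit numbered 14 as reported, 4 and 6 with a pseudocount of 0.1 and 5, 91 with no filter (where most residual variances were exactly 0), 24 at 5 FPKM, 13 without the moderation trend and 0 with centring or with the GC and length trend removed; the cause was not tested. No member was called under any of them, and the shared change of TRAF3 turned to 0.01 with the trend removed. The shared fit has line as a term and so pairs the 2 libraries of each line; the labels give no replicate numbers, so no other block was tried. Depth limits REL and BIRC3, which rest on under 60 estimated fragments in every library.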

Other observations

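Among the general NF-kB targets outside the naming rule, genes chosen after their values were seen, several stood lower in H929 than in KMS28BM at both sorting labels. CXCL10, an interferon-induced chemokine, was at 0.251 and 0.257 FPKM in H929, against 202 and 117 FPKM in KMS28BM. BCL2L1, which encodes the survival protein BCL-XL, was at 8.34 and 6.84 FPKM against 43.0 and 46.8 FPKM. IRF1 was at 6.47 and 8.71 FPKM against 22.4 and 27.4 FPKM, and GADD45B at 20.7 and 18.7 FPKM against 52.8 and 54.9 FPKM. IL6, a growth factor of myeloma cells, was at the floor in both H929 libraries and at 2.25 and 1.83 FPKM in KMS28BM. SESN3, upstream of the run around BIRC3 and outside it, was at 1.80 and 6.89 FPKM in H929, against 0.0555 and 0.0179 FPKM in KMS28BM.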
